A study of Mus musculus with 12 samples.

Results

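The genes described here are 10 genes of Gi/o protein signalling in cerebellar Purkinje cells: Pcp2, Gng13, Rgs8, Rgs7bp, Gnao1, Gnai1, Gnai2, Gnb1, Gnb5 and Gnas. They were chosen by symbol, with earlier results of these data known, and are 10 of the 43346 annotated mouse genes in the deposited tables. The tables hold 76 transcripts of them. The RNA came from 1 male mouse of strain B6CASTF1/J, a cross of Castaneus and C57Bl6 aged 14 months, from which 13 Purkinje cells were excised in parasagittal tissue and homogenised as a pool. Each of the 12 Smart-seq libraries received 1 cell-equivalent of that pool (RNA longer than 200 bases, with spike-in RNA), and libraries are named here by their technical replicate numbers, 1 to 6 and 8 to 13. There was 1 group, with no treatment, genotype contrast or control, so genes were compared with each other within libraries. Because the libraries are splits of 1 pool from 1 mouse, every p-value measures the spread between splits, not between cells or animals, and fewer molecules per cell cannot be told apart from fewer cells holding the RNA.

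A heterotrimeric G protein has an alpha subunit that binds GDP or GTP and a beta-gamma pair. An activated receptor makes the alpha subunit exchange GDP for GTP, and both parts then act on effectors: Gi alpha subunits inhibit adenylyl cyclase, and the beta-gamma pairs they release open GIRK potassium channels and inhibit voltage-gated calcium channels. RGS proteins speed the hydrolysis of GTP and end the signal, and GoLoco proteins bind the GDP-bound alpha subunit. In Purkinje cells the GABA-B receptor is a well known receptor of this class. Pcp2 (also called L7) is a GoLoco protein and Gng13 a gamma subunit, both known for their strong expression in Purkinje cells. Gnas encodes the stimulatory alpha subunit Gs, which opposes Gi/o at adenylyl cyclase.

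The alpha subunits are shown first by their 3' coding ends, because this is the stretch that separates the Gi/o class from Gs. Pertussis toxin modifies a cysteine close to the C terminus of Gi/o alpha subunits, and the codon at that place is in capitals in the last 33 coding bases, stop codon included (5' to 3', GENCODE M21 transcripts, GRCm38; Gnas by the transcript of its long form).
Gnao1 (chr8:93967023-93967055, plus strand): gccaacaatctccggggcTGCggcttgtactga
Gnai1 (chr5:18267019-18267051, minus strand): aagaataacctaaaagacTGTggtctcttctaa
Gnai2 (chr9:107615635-107615667, minus strand): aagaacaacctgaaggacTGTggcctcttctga
Gnas (chr2:174346356-174346388, plus strand): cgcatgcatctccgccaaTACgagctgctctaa
Gnao1, Gnai1 and Gnai2 have a cysteine codon there and Gnas does not. Across the whole coding sequence Gnai1 and Gnai2 were 78.7% identical over aligned bases, with a longest shared run of 32 bases. Gnao1 was 69.0% identical to Gnai1 and 69.6% to Gnai2, with longest shared runs of 23 and 31 bases, and Gnas was 59.2% to 62.0% identical to these 3. The beta subunits Gnb1 and Gnb5 were 59.7% identical, with a longest shared run of 13 bases. For Gnb5 this was a GENCODE M21 transcript that the deposited tables do not hold. Its coding sequence has 1188 bases, as has that of the deposited one.

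Gng13 is shown whole because it is short and, with Pcp2, one of the pair that dominates the levels below. The 204 coding bases, stop included, are split by an intron and lie within chr17:25718701-25719032 (plus strand, GENCODE M21, GRCm38). The capitals mark the 12 bases before the stop, the codons of the C-terminal motif whose cysteine carries the lipid anchor of a gamma subunit.
Gng13: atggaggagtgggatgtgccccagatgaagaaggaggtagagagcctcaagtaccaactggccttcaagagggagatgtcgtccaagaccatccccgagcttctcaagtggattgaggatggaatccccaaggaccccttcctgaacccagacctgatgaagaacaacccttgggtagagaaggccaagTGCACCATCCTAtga

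The 10 genes ran from rank 10 to rank 3828 of all annotated genes by mean level, led by Pcp2 and Gng13. Levels are in TPM, which scales each gene's reads by transcript length and by the library's total, and values are the mean and SD over the 12 libraries. Pcp2 (ENSMUSG00000004630.14, mm10 chromosome 8, 3623371 to 3625545) averaged 7156 ± 1529 TPM (SD, n = 12), with a lowest value of 5009.9, a median of 6779.8 and a highest value of 10095.5 TPM. Gng13 (ENSMUSG00000025739.9, chromosome 17, 25717171 to 25719406) averaged 5459 ± 1372 TPM, with a lowest value of 3769.7, a median of 5541 and a highest value of 8289 TPM. They ranked 10 and 15 by mean TPM, and both were lowest in library 4. Pcp2 was above Gng13 in 12 of 12 libraries, by 0.40 ± 0.25 on the log2(TPM + 1) scale (exact two-sided sign-flip permutation test, adjusted p = 0.000666). That is the smallest adjusted p these 45 pairs gave, and 0.000488 is the smallest raw p the test can give with 12 libraries. The 10 genes together summed to 14014 ± 2693 TPM, and Pcp2 and Gng13 held 89.7 ± 2.39% of that sum. Both have short transcripts, and without the correction for length, in CPM (counts scaled by the library's total only), they held 50.99 ± 5.83% of the counts of the 10 genes.

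Each of the 4 alpha subunits was below Pcp2, which binds Gi/o alpha subunits, and below Gng13 in 12 of 12 libraries. Gnas (ENSMUSG00000027523.15, chromosome 2, 174284320 to 174346744) averaged 461 ± 179 TPM, with a lowest value of 273, a median of 411 and a highest value of 919 TPM. It was highest in library 5 and lowest in library 10. Gnao1 (ENSMUSG00000031748.11, chromosome 8, 93809966 to 93969388), the alpha subunit of Go, averaged 136 ± 57.5 TPM, with a lowest value of 43.65, a median of 132 and a highest value of 254 TPM. Gnai1 (ENSMUSG00000057614.5, chromosome 5, 18265135 to 18360355) averaged 56.1 ± 35.7 TPM, from 4.34 in library 2 through a median of 46.3 to 136 TPM in library 4. Both genes encode inhibitory alpha subunits, and Gnao1 was above Gnai1 in 11 of 12 libraries, by 1.47 ± 1.25 log2 units (adjusted p = 0.00122, exact sign-flip permutation test). Gnai2 (ENSMUSG00000032562.9, chromosome 9, 107614125 to 107635367) averaged 31.8 ± 29.1 TPM, from 6.28 in library 3 through a median of 25.9 to 107 TPM in library 2. Library 2 was thus the lowest for Gnai1 and the highest for Gnai2, and the Gnai1 and Gnai2 levels did not pass the test (0.91 ± 1.98 log2 units, 10 of 12 libraries, adjusted p = 0.143, exact permutation test).

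The beta subunits Gnb1 and Gnb5 were unlike in level and in detection. Gnb1 (ENSMUSG00000029064.11, chromosome 4, 155491361 to 155559269), a beta subunit of most heterotrimers, averaged 328 ± 135 TPM, with a lowest value of 158, a median of 284 and a highest value of 596 TPM. Gnb5 (ENSMUSG00000032192.8, chromosome 9, 75306288 to 75345876) is the beta subunit that pairs with R7 RGS proteins. It stood at 59.4 TPM in library 1, 70.6 in library 4, 34.5 in library 8 and 130.9 in library 10, on 903 to 3766 counts. In the other 8 libraries it had 0 to 4 counts, and in library 12, where it had 0, a count of 0 allows up to 0.11 TPM (3 counts of that library). No library fell between these ranges, and the mean of 24.7 ± 42.1 TPM describes none of them. Gnb1 was above Gnb5 in 12 of 12 libraries, by 6.15 ± 3.09 log2 units (adjusted p = 0.000666, exact permutation test). With Gnb5 at or near 0 in 8 libraries the added constant sets much of this size, which was 7.93 with 0.1 TPM in place of 1. The deposited Gnb5 model is 1 transcript of 1188 bases, all of it coding, so no UTR is part of it.

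Rgs8 and Rgs7bp represent the RGS side. Rgs8 (ENSMUSG00000042671.8, chromosome 1, 153653025 to 153700323) is an RGS protein of the R4 class. It averaged 257 ± 63.8 TPM, with a lowest value of 167, a median of 259.9 and a highest value of 352 TPM. Rgs7bp (ENSMUSG00000021719.8, chromosome 13, 104945904 to 105054930) encodes the membrane anchor of R7 RGS proteins. It averaged 106 ± 44.9 TPM, with a lowest value of 40.6, a median of 107 and a highest value of 184 TPM. Rgs8 was above Rgs7bp in 12 of 12 libraries, by 1.36 ± 0.79 log2 units (adjusted p = 0.000666, exact permutation test), and both genes were highest in library 12.

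**Figure D1:**
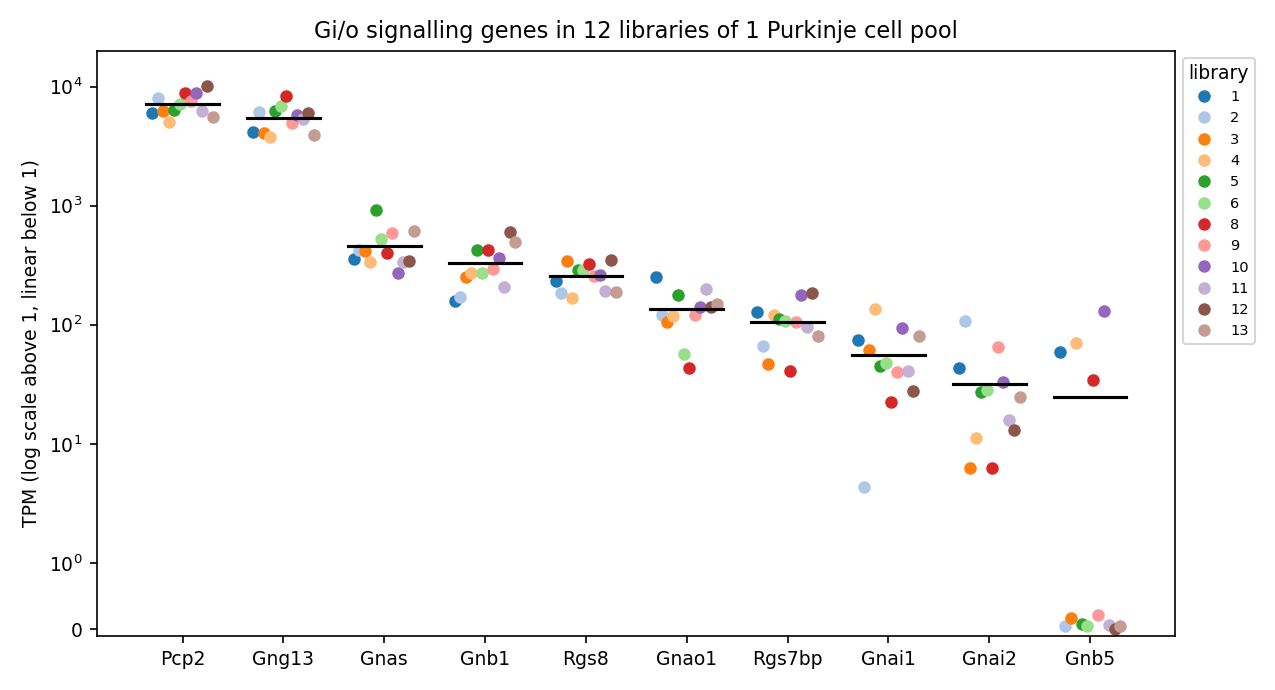
Level of each gene in TPM (y axis, logarithmic above 1 and linear below) in each of the 12 libraries (coloured points), with genes ordered by mean TPM (black lines). Pcp2 and Gng13 lie between 3769.7 and 10095.5 TPM in every library, whereas Gnb5 has 4 libraries between 34.5 and 131 TPM and 8 at or below 0.21 TPM.

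Of the 45 pairs of the 10 genes, 42 differed within libraries at an adjusted p under 0.05, and 33 of these ran the same way in all 12 libraries. No such count was made for pairs of other genes. The 10 genes run from 24.7 to 7156 mean TPM, so the 42 calls cannot be read as particular to them. The order of the mean levels was Pcp2, Gng13, Gnas, Gnb1, Rgs8, Gnao1, Rgs7bp, Gnai1, Gnai2 and Gnb5. Of the 9 neighbouring pairs in that order, 6 differed beyond their spread. Besides Gnai1 and Gnai2, Gnb1 did not pass against Rgs8 (0.28 ± 0.55 log2 units, 8 of 12 libraries, adjusted p = 0.104, exact permutation test), nor Gnao1 against Rgs7bp (0.35 ± 0.68, 8 of 12 libraries, adjusted p = 0.104). Each of these 3 pairs passed without 1 library: Gnai1 and Gnai2 without library 2 (1.39 log2 units), Gnb1 and Rgs8 without library 1 (0.36) and Gnao1 and Rgs7bp without library 6 (0.47). Gnas passed against Gnb1 (0.52 ± 0.67, 9 of 12 libraries, adjusted p = 0.0268, exact permutation test) but not once library 2, 5 or 9 was left out. Gnai2 passed against Gnb5 (2.48 ± 3.36, 8 of 12 libraries, adjusted p = 0.0345, exact permutation test), but not once any of the 8 libraries with almost no Gnb5 was left out, and the difference was 4.19 with 0.1 TPM added in place of 1. The other neighbours that passed were Rgs8 over Gnao1 (1.01 ± 0.91 log2 units, 10 of 12 libraries) and Rgs7bp over Gnai1 (1.12 ± 1.14, 10 of 12 libraries), with adjusted p of 0.00238 and 0.00394 (exact permutation test). In CPM, Gnas stood below Gnb1 and below Rgs8, Gnb1 below Rgs8 and Gnao1 below Rgs7bp, so these directions hold only per length. The length correction also bears on Gng13, whose difference from Rgs8 was 4.40 ± 0.37 log2 units in TPM (12 of 12 libraries, adjusted p = 0.000666) and 0.10 ± 0.35 in CPM (8 of 12 libraries, adjusted p = 0.342, exact permutation test). Gnas and Rgs7bp differed by 2.16 ± 0.90 log2 units in TPM (adjusted p = 0.000666) and by 0.32 ± 0.91 in CPM (7 of 12 libraries, adjusted p = 0.247, exact permutation test).

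**Figure D2:**
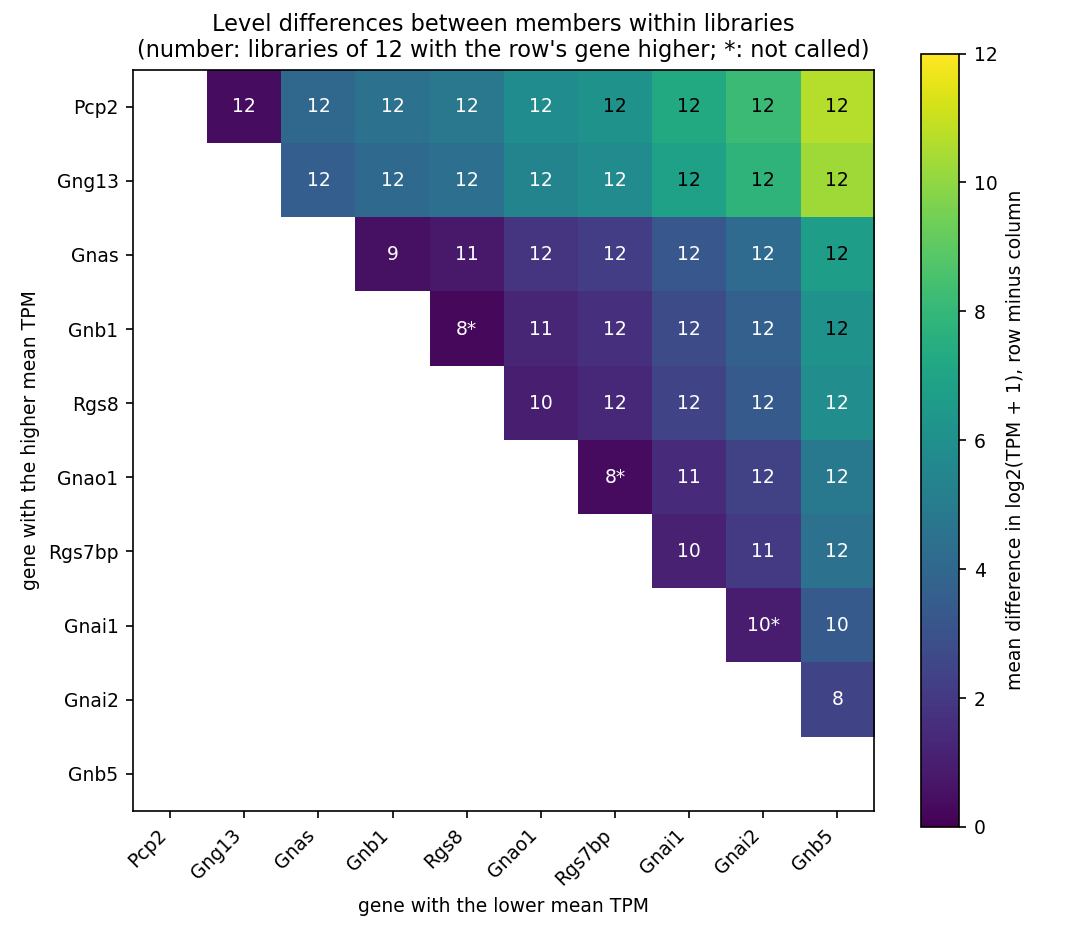
Mean within-library difference in log2(TPM + 1) between each pair of genes (colour, row gene minus column gene), with the number of the 12 libraries in which the row gene was higher. Asterisks mark the 3 pairs that did not pass, and all 17 pairs that hold Pcp2 or Gng13 ran the same way in 12 of 12 libraries.

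Measured against its own gene family, the leading member held on average more than 50% of the family's TPM. Gng13 held 92.2 ± 2.79% of the summed TPM of 12 gamma subunits and led in all 12 libraries. Gng5 (236 ± 140 TPM) and Gng3 (90.7 ± 70.6 TPM), gamma subunits of wide and of neuronal expression, came next. Pcp2 held 99.1 ± 0.86% of 7 GoLoco genes, and Rap1gap, a GTPase activator of Rap with a GoLoco motif, averaged 34.5 ± 47.1 TPM. Gnb1 held 84.9 ± 12.4% of 5 beta subunits, against 6.34 ± 10.3% for Gnb5, and Gnb4 and Gnb2, other beta subunits, averaged 26.3 ± 28.9 and 10.0 ± 13.5 TPM. Gnb1 led the beta subunits in all 12 libraries, also in the 4 with Gnb5.

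Among 8 Gi/o alpha subunits Gnao1 held 54.5 ± 11.8%, Gnai1 23.1 ± 11.7% and Gnai2 13.5 ± 12.1% of the TPM. Gnao1 led in 11 libraries and Gnai1 in library 4. Gnaz, an alpha subunit that pertussis toxin does not modify, averaged 10.7 ± 17.6 TPM and Gnai3, the other Gi alpha subunit, 10.4 ± 25.1 TPM. Gnas held 54.4 ± 10.6% of all 16 alpha subunits and led in 12 of 12 libraries, and Gnaq and Gna11, alpha subunits that activate phospholipase C, averaged 28.7 ± 17.1 and 28.3 ± 46.9 TPM. Gnas ranged from 0.91 times the summed Gi/o alpha subunits in library 1 to 5.52 times in library 8, with a mean ratio of 2.23 ± 1.45.

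Rgs8 held 86.5 ± 13.4% of 10 R4 RGS genes, ahead of Rgs3 at 24.5 ± 32.8 TPM. Over 20 RGS genes of all classes Rgs8 held 61.8 ± 16.7% and led in 11 libraries. Rgs10, of the R12 class, averaged 108 ± 92.1 TPM and led in 1 library, and Rgs17, of the RZ class, averaged 16.3 ± 27.8 TPM. Rgs10 is also abundant in microglia. It was at 224 TPM in library 8, where the microglial marker sum was 446 TPM, and at 195 TPM in library 12, where that sum was 0. The part of microglia in the level of Rgs10 was not tested. The lowest shares of Rgs8 among the R4 genes were 56.5% in library 2, where Rgs3 was at its highest of 118 TPM, and 68.1% in library 13. In library 13 Rgs5 reached 80.9 TPM, and it averaged 6.84 ± 23.3 TPM over the libraries. Rgs5 is also a marker of mural cells, and the endothelial and mural marker sum, which contains it, was 287 TPM in library 13 and at most 45 TPM in the others. The part of these cells in that share was not tested.

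Rgs7bp held 90.5 ± 12.5% of 8 R7 RGS and anchor genes. Transcripts of the RGS proteins that it anchors were detected in fewer libraries than the anchor. Rgs7 averaged 5.59 ± 7.59 TPM and Gpr158, a receptor that binds R7 RGS complexes, 3.12 ± 5.39 TPM. At least 1 of Rgs6, Rgs7, Rgs9 and Rgs11 reached 50 counts in 7 libraries. Gnb5 reached 50 counts in 4 libraries, Gnb5 and an R7 RGS gene together in 2, and neither in 3 (libraries 2, 9 and 12), whereas Rgs7bp did in all 12. Detection depends on level: Rgs7bp averaged 106 TPM, and 72.1% of genes between 100 and 1000 TPM reached 50 counts in every library. No joint count was made for other gene pairs, so these counts cannot be read as particular to R7 RGS complexes.

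**Figure D3:**
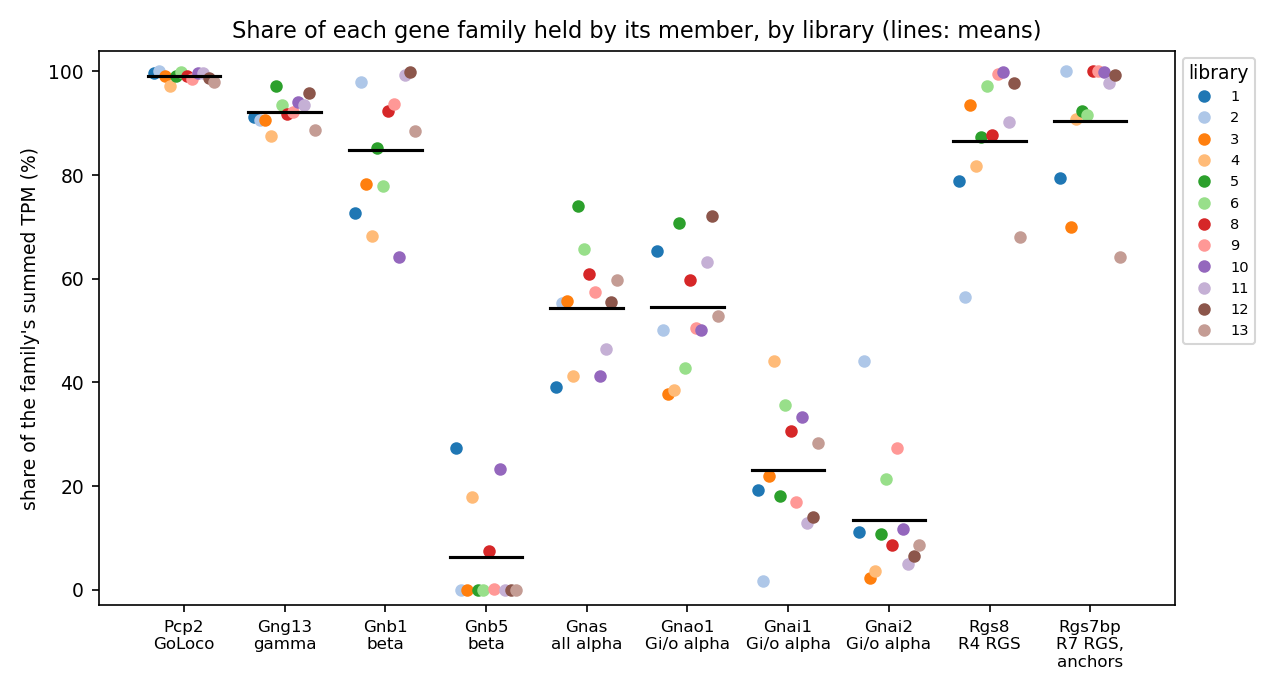
Share of the summed TPM of its family held by each gene (y axis, percent) in each of the 12 libraries (coloured points), with means as black lines and the family named under the gene. The lowest library is at 97.2% for Pcp2 and 87.6% for Gng13, while the Gi/o alpha subunits overlap each other.

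Ratios between partners depended on the correction for length. Gng13 stood at 16.2 ± 7.92 times the summed TPM of the 5 beta subunits, from 7.02 in library 13 to 35.1 in library 2. In CPM the ratio was 1.86 ± 0.88, from 0.77 in library 13 to 3.82 in library 2. Pcp2 stood at 36.7 ± 29.0 times the summed TPM of the Gi/o alpha subunits, from 15.5 in library 1 to 119.7 in library 8, and at 5.73 ± 3.89 times in CPM. Library 8 is also the library with the lowest Gnao1, so its ratio rests on a small denominator. In CPM Gnas stood at 1.38 ± 0.79 times the Gi/o alpha subunits. These are ratios of transcripts, not of proteins.

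Receptors and effectors of the pathway were mostly at lower levels. Gabbr1 and Gabbr2, the subunits of the GABA-B receptor, averaged 129.5 ± 70.8 and 65.1 ± 30.8 TPM, and both had 50 or more counts in all 12 libraries (Gabbr2 is named as the partner of Gabbr1, after its values were seen). S1pr1, a sphingosine phosphate receptor and also a gene of astrocytes and endothelium, averaged 79.8 ± 34.9 TPM. Kcnj3, a GIRK channel subunit, averaged 77.8 ± 51.9 TPM and reached 50 counts in all 12 libraries. Its relative Kcnj9 averaged 13.9 ± 13.6 TPM and did so in 8. Adcy1, a calcium-activated adenylyl cyclase, averaged 18.9 ± 12.6 TPM and Adcy8 6.09 ± 8.17 TPM. Cacna1a, the pore of the P/Q calcium channel, averaged 40.5 ± 39.2 TPM and Cacna1e 1.30 ± 2.32 TPM. Ccdc88a, a protein that binds Gi alpha subunits, averaged 50.3 ± 30.1 TPM. Of the 105 other pathway genes, 60 had a mean of at least 1 TPM and 30 had no count in any library, 13 of them receptors. Their median mean level was 2.27 TPM, against 196 TPM for the 10 genes described here and 11.6 TPM for all genes with a mean of at least 1 TPM. The genes and lists were chosen with earlier results of these data known, so this gap cannot be told apart from the choice.

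Detection was complete for 9 of the 10 genes: all but Gnb5 had 50 or more counts in every library. Of the 12184 annotated genes with a mean of at least 1 TPM, 13.2% did so, as did 10 of the 105 other pathway genes. This comparison has the same limit, since the genes were chosen with earlier results known. That share depends on level, being 13.7% between 10 and 100 TPM, where Gnai1 and Gnai2 passed and Gnb5 did not. It was 72.1% between 100 and 1000 TPM and 100% above 1000 TPM.

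The spread between libraries was set against that of other genes of like abundance. Varying beyond Poisson sampling were all 10 genes (chi-square test of the counts, adjusted p under 0.05), as were 99.9% of the 13899 genes tested. None of the 10 exceeded the abundance trend in edgeR's quasi-likelihood fit, in which 0.0144% of 13899 genes were called, 2 genes in all. At an unadjusted p under 0.05 the counts were 0 of the 10 and 95 of all genes (0.684%). That share is well below the threshold itself, so the test was conservative and 0 of 10 says little about these genes. Pcp2 had the smallest unadjusted p of the 10, 0.0992 (adjusted p = 0.773, edgeR quasi-likelihood), with a count dispersion 1.32 log2 units above the trend. Gnb5, Gng13, Rgs8 and Gnb1 lay 0.32 to 0.45 above it, Rgs7bp 0.12 below it, and Gnai1, Gnao1 and Gnas 0.88 to 1.06 below it. Gnai2 was farthest from the trend, at -2.82 log2 units, and the test looked for raised dispersion only. In simulated counts the same test called 33.8% of genes given 4 times the trend's dispersion, 46.4% at 16 times and 34.6% at 64 times. Most genes of raised spread thus went uncalled.

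The coefficient of variation (CV, SD over mean) of TPM was lowest for Pcp2 at 0.214, Rgs8 at 0.248 and Gng13 at 0.251. The median CV of the 51 genes around each in mean count was 0.274 for Pcp2, 0.299 for Rgs8 and 0.295 for Gng13. These genes were thus below their neighbours in CV, but above the edgeR trend in count dispersion (1.32, 0.37 and 0.41 log2 units). The measures differ in direction here, so neither a raised nor a lowered spread is read from them. Gnas and Rgs7bp had CVs of 0.388 and 0.425, against 0.386 and 0.409 for their neighbours in count. Gnb1, at 0.412, was a little above its neighbours at 0.361. Gnai2, at 0.916, was below its neighbours at 1.34, and Gnb5, at 1.71, was beside its own at 1.68. Present in 4 libraries and all but absent in 8, Gnb5 thus had the spread of its abundance class.

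**Figure D4:**
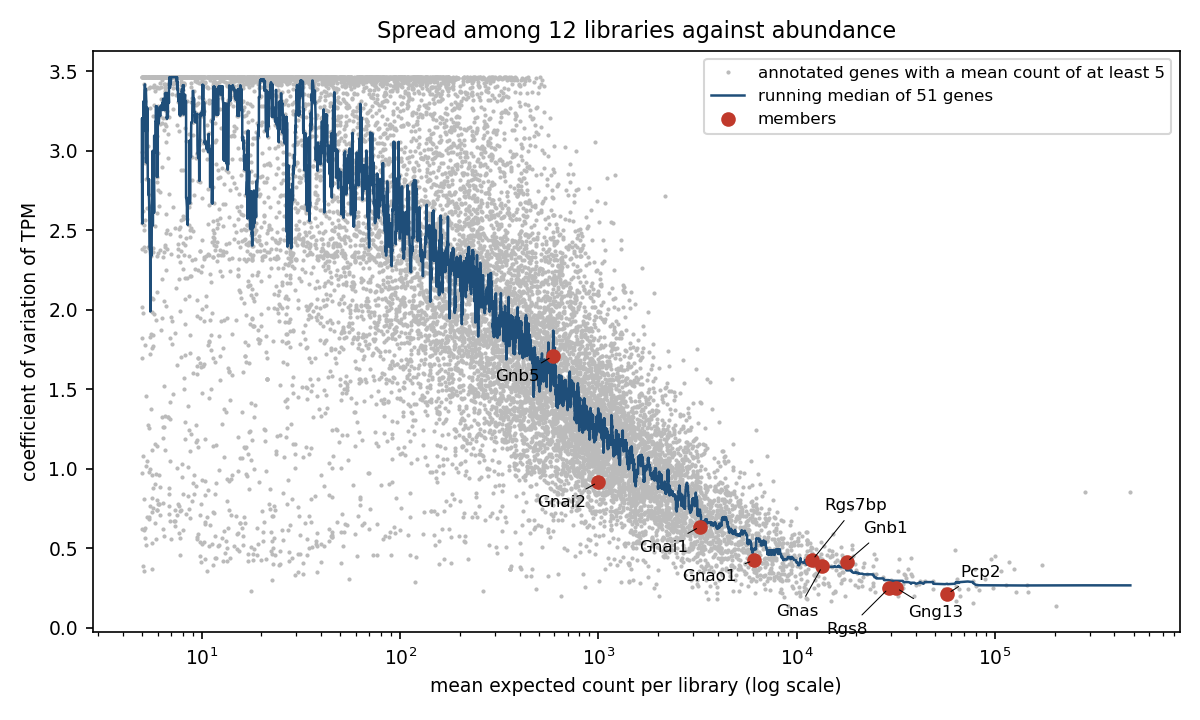
Coefficient of variation of TPM over the 12 libraries (y axis) against mean expected count per library (x axis, log scale) for the annotated genes tested (grey), with the running median of 51 genes (line) and the 10 genes (red). The red points lie along the line, with Gnai2 below it at 0.916 against 1.34.

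Over the 12 libraries, and as a description only, the levels of Pcp2 and Gng13 had a Spearman rho of 0.70, the highest of the 36 pairs of the 9 genes with 50 or more counts throughout. The 36 pairs had a median rho of 0.10 and ran down to -0.66 for Gng13 and Gnai1, against a median of 0.0070 over all pairs of 1613 such genes. The points share their library's total and depth. Pcp2 and Gng13 were lower in libraries with more genes detected (rho of -0.85 and -0.71, n = 12), Gnai1 was higher there (0.69), and Pcp2 was higher in deeper libraries (0.65 with gene counts). With the marker sum of Bergmann glia and astrocytes, Pcp2 had a rho of -0.62, Gng13 of -0.49 and Gnai1 of 0.46. With the Purkinje marker sum, which contains Pcp2, the rho was 0.89 for Pcp2, 0.80 for Gng13 and -0.55 for Gnai1. The part of these measures in their co-variation was not tested. The genes most like Pcp2 were Sod1 (0.85), which encodes superoxide dismutase, Pvalb (0.84), which encodes parvalbumin, and Aldoc (0.83), which encodes aldolase C. Those most like Gng13 were Polr2i (0.86), Myh10 (0.83) and Eno1 (0.83), each rho taken over the 12 libraries and among 1613 genes. Gng13 came 17 in the list for Pcp2.

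Transcripts of Pcp2 began at several places, and the leading 3 each held 19.9% or more of the gene in every library. Transcript shares are estimates, since transcripts of a gene share reads, and transcripts are named here by their length. The Pcp2 transcript of 524 bases held 39.8 ± 8.19% of Pcp2 TPM and led in 8 libraries, that of 470 bases held 33.2 ± 5.20% and led in 4, and that of 495 bases held 25.2 ± 4.17%. By counts the 524-base transcript led in 10 libraries and the 470-base one in 2, and in library 12 each held 36.1% of the TPM. On the minus strand of chromosome 8 the transcripts of 524, 470 and 495 bases start at positions 3625002, 3625049 and 3625282, in that order. The coding sequence, stop included, is 363 bases in the 470-base transcript and 300 bases in the other two. The 63 further bases add 21 codons at the 5' end, 3 bases of them in the first exon, and lie within chr8:3624841-3625004 (minus strand, GENCODE M21, GRCm38).
Pcp2 coding bases of the 470-base transcript: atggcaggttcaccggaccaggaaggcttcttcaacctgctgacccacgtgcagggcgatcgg
Pet100, a gene of mitochondrial complex assembly, overlaps Pcp2 on the opposite strand at 11.8 to 87.5 TPM, and because the strand setting of the counting is not given, reads of the overlap cannot be told apart.

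The promoters of Pcp2 and Gng13 are shown because these genes stand apart in level and Pcp2 has several starts. The windows run from 250 bases before to 50 bases after a RefSeq start (GRCm38.p6), on the gene's own strand. Capitals mark the 6-base motifs searched on both strands: TATAAA, the TATA box, AGGTCA, the nuclear receptor half-site, and GGGCGG, the GC box.
Pcp2, start 3625036, 13 bases from the start of the 470-base transcript (chr8:3624987-3625286, minus strand): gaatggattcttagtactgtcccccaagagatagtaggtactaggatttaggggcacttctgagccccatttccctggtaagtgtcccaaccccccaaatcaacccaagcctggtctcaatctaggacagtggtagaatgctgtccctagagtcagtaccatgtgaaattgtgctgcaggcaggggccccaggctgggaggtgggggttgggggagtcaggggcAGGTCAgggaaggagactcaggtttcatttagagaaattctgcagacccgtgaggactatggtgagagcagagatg
Pcp2, start 3625282, that of the 495-base transcript (chr8:3625233-3625532, minus strand): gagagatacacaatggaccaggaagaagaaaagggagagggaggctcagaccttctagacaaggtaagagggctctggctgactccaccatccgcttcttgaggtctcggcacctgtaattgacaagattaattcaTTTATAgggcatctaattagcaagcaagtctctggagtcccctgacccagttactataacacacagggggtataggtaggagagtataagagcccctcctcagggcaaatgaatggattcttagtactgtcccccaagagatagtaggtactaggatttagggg
Gng13, start 25717528, that of the 347-base transcript (chr17:25717278-25717577, plus strand): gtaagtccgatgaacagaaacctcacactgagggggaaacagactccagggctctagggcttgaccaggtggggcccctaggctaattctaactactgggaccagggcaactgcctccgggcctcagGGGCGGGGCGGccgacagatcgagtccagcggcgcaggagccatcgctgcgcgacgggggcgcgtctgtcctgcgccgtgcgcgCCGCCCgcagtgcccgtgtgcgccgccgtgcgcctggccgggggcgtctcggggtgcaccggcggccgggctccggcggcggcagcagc
RefSeq has 4 Pcp2 windows and 2 Gng13 windows, and those at or nearest to the starts of the transcripts named are shown. Of the others, the Pcp2 windows with starts 3625547 and 3625472 overlap and share 1 AGGTCA site, at positions -12 and -87. The Gng13 window with start 25717172 holds 2 GGGCGG. The first Pcp2 window shown holds 1 AGGTCA on the gene's strand at position -26, and the second holds 1 TATAAA on the opposite strand at position -114. The Gng13 window shown holds 3 GGGCGG, at positions -123 and -118 on the gene's strand, which overlap by 1 base, and at -39 on the opposite strand. Of 32851 promoter windows of the same length, 13.6% hold TATAAA, 16.3% hold AGGTCA and 35.7% hold GGGCGG on either strand. The windows shown are 53.3%, 47.7% and 72.0% GC, against a median of 52.7% over all windows. RefSeq windows were matched by symbol for 9 of the 10 genes.

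Gng13 varied little in its transcripts: that of 347 bases held 87.6 ± 0.79% over the 12 libraries, and that of 719 bases, which starts upstream and has the same coding length, held the rest. The Rgs8 transcript of 5614 bases held 85.7 ± 9.05% and the Gnb1 transcript of 2832 bases held 96.1 ± 5.86%, each leading in all 12 libraries. Rgs7bp, Gnai1 and Gnb5 have 1 transcript each in the deposited tables.

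Gnas transcripts differed between libraries by far more. The Gs alpha protein exists in a long and a short form, which differ by an exon present in the transcript of 1716 bases and skipped in that of 1695 bases. The long form held 49.7 ± 28.2% and led in 8 libraries, and the short form held 45.2 ± 30.9% and led in 4. The short form held 98.2% in library 3, 84.5% in library 8, 80.9% in library 9 and 77.4% in library 10, and 11.2% to 39.3% in the other 8 libraries. No point estimate fell between these ranges. The deposited bounds of the short form were 140 to 235 TPM in library 10 and 130 to 210 TPM in library 2. Gnas as a whole stood at 273 and 426 TPM there, so overlap of these TPM bounds does not mean that the shares overlap. Whether the gap in shares exceeds the error of the estimates was not tested. The exon that sets the forms apart has 45 bases, chr2:174336747-174336791 (plus strand, GENCODE M21, GRCm38).
Gnas exon of the long form: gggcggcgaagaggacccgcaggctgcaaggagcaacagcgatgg
The gene-level values of Gnas in the 4 libraries led by the short form were 418, 404, 585 and 273 TPM, and those in the other libraries ran from 334 to 919 TPM, so the levels overlapped.

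Gnai2 was led by different transcripts in different libraries. The transcript of 2215 bases led in 7 libraries, and that of 1777 bases, with the same coding length, led in 4 (libraries 3, 10, 11 and 12, at 96.0% to 100%). A transcript of 595 bases annotated as a retained intron led in library 2 at 61.6% and held 44.1% in library 9. It led in TPM only, with 728 counts in library 2 against 1935 for the 2215-base transcript. By counts it led in 0 libraries. Libraries 2 and 9 had the highest Gnai2 levels, and from coding transcripts alone Gnai2 averaged 23.8 ± 13.1 TPM with a highest value of 42.8 TPM in library 1. The Gnao1 transcript of 2948 bases held 65.6% with an SD of 25% and led in 10 libraries. That of 3462 bases, of the same coding length, led in library 2 at 53.4%, and a retained intron of 402 bases led in library 13 at 56.5%. By counts that intron led in 0 libraries, with 497 in library 13 against 1288 for the 2948-base transcript. Coding transcripts alone gave Gnao1 112 ± 39.4 TPM.

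**Figure D5:**
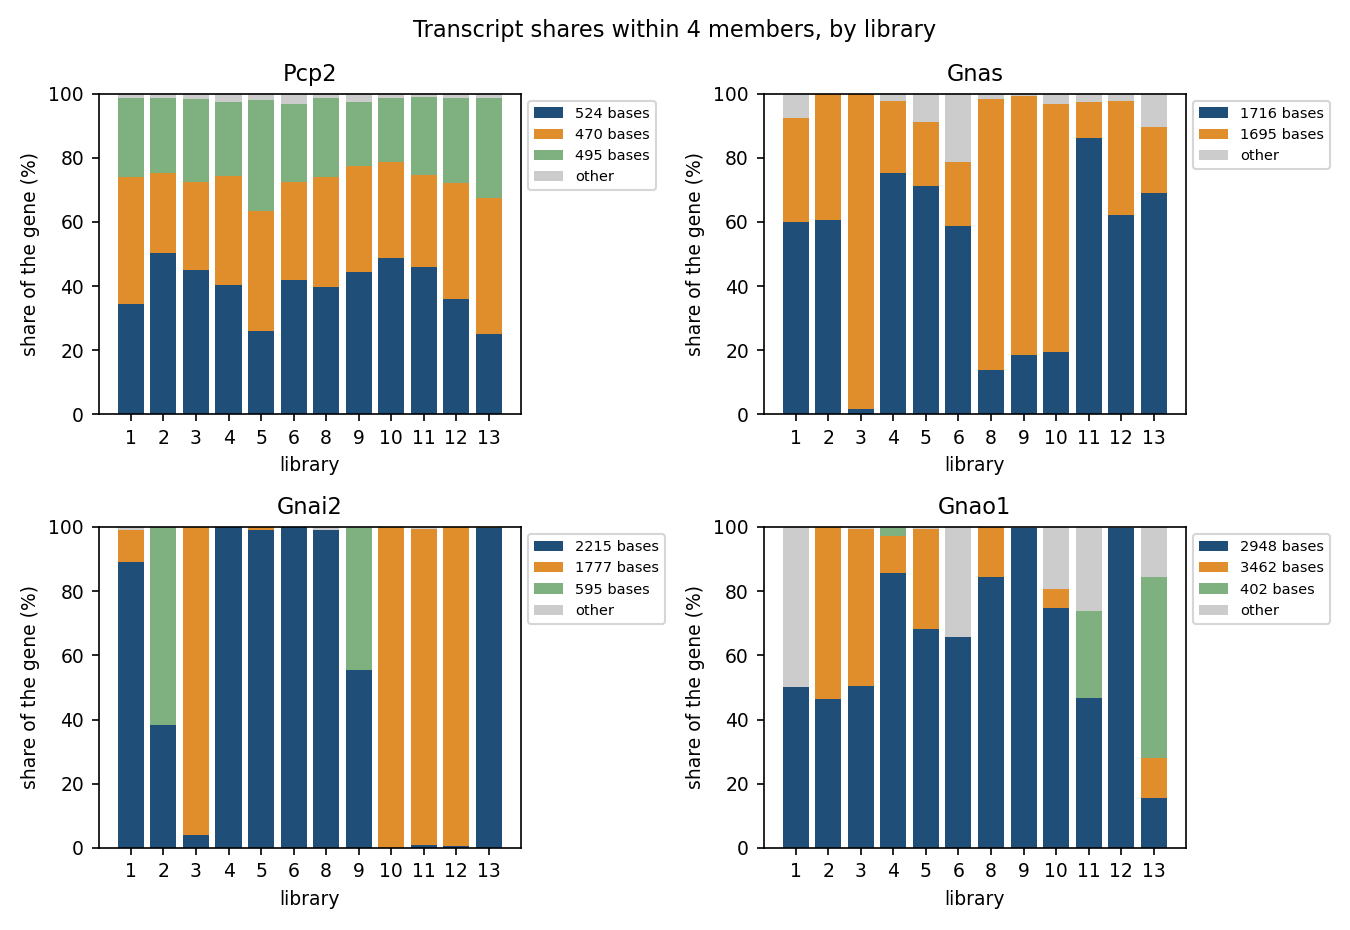
Share of each gene's TPM (y axis, percent) held by its main transcripts, named by length, in each of the 12 libraries (x axis) for Pcp2, Gnas, Gnai2 and Gnao1, with other transcripts in grey. Pcp2 shows 3 sizeable bands in every library, Gnas changes leader in libraries 3, 8, 9 and 10, and Gnai2 is close to 0 or 100% in most libraries.

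Across the libraries as a whole, expected counts of annotated genes totalled 1.37e+07 to 2.41e+07, with 5.86 to 19.9 gene counts per spike-in count. The label of Purkinje cell was matched by its markers: all 8 had a count in all 12 libraries, although Slc1a6 had only 4 counts in library 11. They summed to 14108 to 25336 TPM, and to 7559 to 15241 TPM without Pcp2, which is one of the 10 genes described here. Marker sums of other cerebellar cells were 1304 to 3567 TPM for Bergmann glia and astrocytes (8 genes), 67.4 to 696 for granule cells (6 genes) and 101.1 to 399 for oligodendrocytes (6 genes). They were 4.72 to 116 TPM for interneurons (7 genes, Sst at 0), 0 to 446 for microglia (6 genes, Fcer1g at 0 in every library) and 0 to 287 for endothelial and mural cells (6 genes, Cldn5 and Acta2 at 0 in every library). Gnb1, Gnas, Gnao1, Gnai1 and Gnai2 are also expressed in such cells, and their part in these levels was not tested.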

How the data were processed

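RNA longer than 200 bases was measured in 12 Smart-seq libraries from 1 pool. Per the labels the build was mm10, and the deposited text files name annotation M4. For the aligner, quantifier and strand setting, the choice is not given in the sources used here. Per the file headers, the deposited tables hold expected counts (estimated, not all whole), the authors' TPM, whose total includes the spike-ins, TPM interval bounds and posterior SDs (columns treated as a score, not used for results), and each transcript's percent of its gene. Gene symbols and coordinates came from GENCODE M21.

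The members and lists were chosen with earlier results of these data known. All 10 members are named, the 2 most abundant genes of each other list, and the 3 genes most correlated with Pcp2 and with Gng13. Within-library differences of log2(TPM + 1) entered an exact sign-flip permutation test, two-sided and adjusted (Benjamini-Hochberg, 0.05) over 45 pairs. Expected counts, rounded to whole numbers, entered edgeR 4.0.16 (TMM, intercept-only quasi-likelihood fit, one-sided F test of dispersion against the abundance trend, mean count of at least 5) and a chi-square test against Poisson sampling, both adjusted over all 13899 genes. Both were tested on simulated data. The self-test called 33.8% of 65 genes simulated at 4 times the trend's dispersion, 46.4% of 56 at 16 times and 34.6% of 26 at 64 times, in a step of 12724 genes. Coding sequences were aligned with Biopython 1.88. Counts come from PCR without molecular identifiers, so the limit set by a count of 0 (3 counts) covers counting error only. Alternatives tried were the pseudocount, CPM, a Wilcoxon test, other scaling factors and filters, thinning, coding transcripts only, and leaving out each library. Others were TPM rescaled to the total of annotated genes and counts per spike-in count.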

Additional observations from a re-analysis of the deposited data

How the results depend on the processing

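The count of 42 of 45 pairs was 42 with a pseudocount of 0.1 TPM, 42 in CPM, 43 with the exact Wilcoxon signed-rank test (Gnai1 and Gnai2 were added) and 40 to 43 with 1 library left out. In CPM, which is not corrected for length, 3 neighbouring pairs turned round: Gnas minus Gnb1 was -0.26, Gnb1 minus Rgs8 -0.82 and Gnao1 minus Rgs7bp -0.92 log2 units, the first no longer passing (adjusted p = 0.227, exact permutation test) and the other two passing in the new direction. The equal count in CPM covers other pairs, since Gng13 against Rgs8 and Gnas against Rgs7bp no longer passed and Gnai1 against Gnai2 did (1.71 log2 units, adjusted p = 0.0123, exact permutation test). Also in CPM, Gng13 held 79.3% of the gamma subunits, Gnas 38.7% of all alpha subunits and Pcp2 96.2% of the GoLoco genes. In CPM values added after seeing the data, Pcp2 and Gng13 held 50.99% of the 10 genes, Gng13 stood at 1.86 times the beta subunits and Pcp2 at 5.73 times the Gi/o alpha subunits. These shares change by the construction of the unit, since counts grow with transcript length. The 12 neighbouring and related pairs kept their direction under every other alternative run. No member exceeded the edgeR abundance trend with RLE factors, a mean count of at least 1 or 50, or any library left out, where 1 or 2 genes of all were called. The 9 members that still had a mean count of at least 5 after the counts were thinned 100-fold below the shallowest library all varied beyond Poisson sampling. Gnb5 was left out there. Detection in every library stayed at 9 of 10 at 1 and 5 counts. Levels depend on the total used, since annotated genes held 765330 to 922959 TPM per library. With TPM rescaled to annotated genes, Pcp2 averaged 8725 ± 2210 TPM and Gng13 6658 ± 1894 TPM. The CV per spike-in count was more than 1.5 times that of TPM for Pcp2, Gnao1, Gnai1, Gnb1 and Gnas (0.326, 0.665, 0.963, 0.656 and 0.604). The cause was not tested. No paired analysis was possible because all 12 libraries belong to 1 group, so no replicate number is shared between groups. Genes were compared within libraries. Gnb5 had 0 counts in library 12 at 2.37e+07 gene counts and 1153 in library 1 at 1.68e+07, and its rho with gene counts was -0.046 (n = 12). Shares of low transcripts are estimates.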
